A study of Rattus norvegicus with 6 samples.

Results

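The basement membrane genes described here comprised 4 collagens (Col4a1, Col4a2, Col15a1 and Col18a1), 4 laminin chains (Lama2, Lama4, Lamb1 and Lamc1), the nidogen Nid1 and the perlecan gene Hspg2, chosen by name. Of these 10 genes, 9 had a row of that name among the 32883 named rows of the count table, and all 9 passed the filter on low counts. Hspg2 had no row of its own name. A row named AABR07073181.1 (ENSRNOG00000021437), which RefSeq lists as a synonym of Hspg2, was read beside the 9 genes and is not counted among them.

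The RNA came from hearts of male Sprague–Dawley rats, 8 weeks old, 250 to 300.0 g in weight and labelled WT. The 3 ISO rats received 1.5 mg/kg/day of ISO under the skin for 7 days, and the 3 saline rats received the same volume of saline. The labels do not spell out ISO. It is taken to mean isoproterenol, which activates beta-adrenergic receptors and is used to produce cardiac hypertrophy and fibrosis in rodents. Each library came from 1 rat, no source used here names the heart chamber, and the libraries held 14880391 to 17299589 counts.

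A basement membrane is the thin sheet of matrix that wraps each cardiomyocyte and underlies the endothelium of every vessel. Its scaffold is built from a laminin network, attached to the cell surface, and a type IV collagen network, with nidogens and the proteoglycan perlecan joining them. Collagens XV and XVIII lie at the outer face of the sheet toward the fibrillar matrix, and their carboxy-terminal ends can be cut off as the anti-angiogenic fragments restin and endostatin. In the heart, laminin with the alpha 2 chain is the main form around cardiomyocytes, and laminin with the alpha 4 chain is typical of vessels.

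Col4a1 and Col4a2 are transcribed in opposite directions from a shared promoter, and they are shown first because the ratio of their reads did not overlap between ISO and saline hearts. In the RefSeq promoter windows, which run from 250 bases before to 50 bases after a gene's start on build GRCr8, the 2 starts on chromosome 16 lie 77 bases apart. The Col4a1 window is chr16:84885347-84885646 on the plus strand, and the Col4a2 window is chr16:84885471-84885770 on the minus strand. They share 176 bases, printed in capitals, read from opposite strands.
Col4a1: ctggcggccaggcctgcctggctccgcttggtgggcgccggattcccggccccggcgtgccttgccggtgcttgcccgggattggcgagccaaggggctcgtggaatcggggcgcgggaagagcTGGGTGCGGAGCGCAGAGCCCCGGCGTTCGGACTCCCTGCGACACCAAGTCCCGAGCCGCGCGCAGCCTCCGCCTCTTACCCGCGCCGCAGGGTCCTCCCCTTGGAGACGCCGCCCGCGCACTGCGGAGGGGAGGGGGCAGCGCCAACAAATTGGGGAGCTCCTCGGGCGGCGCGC
Col4a2: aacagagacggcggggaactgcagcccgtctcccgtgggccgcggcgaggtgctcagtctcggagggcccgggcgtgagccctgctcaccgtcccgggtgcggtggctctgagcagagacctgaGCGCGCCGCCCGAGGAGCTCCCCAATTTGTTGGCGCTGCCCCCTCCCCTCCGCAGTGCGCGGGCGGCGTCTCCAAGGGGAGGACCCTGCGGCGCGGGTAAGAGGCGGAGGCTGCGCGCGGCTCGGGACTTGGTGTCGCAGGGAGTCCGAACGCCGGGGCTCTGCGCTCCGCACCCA

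The windows of Nid1, Col18a1 and Col15a1 are shown because these members had the largest differences between ISO and saline hearts. They are Nid1 at chr17:93069036-93069335, Col18a1 at chr20:11473395-11473694 and Col15a1 at chr5:66297296-66297595, all on the plus strand of GRCr8. Capitals mark the GC box, GGGCGG or its reverse CCGCCC.
Nid1: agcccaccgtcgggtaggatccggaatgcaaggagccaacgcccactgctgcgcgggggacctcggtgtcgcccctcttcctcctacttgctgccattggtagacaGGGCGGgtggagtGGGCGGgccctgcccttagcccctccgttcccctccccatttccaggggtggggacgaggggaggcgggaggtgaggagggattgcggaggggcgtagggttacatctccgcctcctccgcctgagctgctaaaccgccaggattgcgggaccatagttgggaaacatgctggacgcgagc
Col18a1: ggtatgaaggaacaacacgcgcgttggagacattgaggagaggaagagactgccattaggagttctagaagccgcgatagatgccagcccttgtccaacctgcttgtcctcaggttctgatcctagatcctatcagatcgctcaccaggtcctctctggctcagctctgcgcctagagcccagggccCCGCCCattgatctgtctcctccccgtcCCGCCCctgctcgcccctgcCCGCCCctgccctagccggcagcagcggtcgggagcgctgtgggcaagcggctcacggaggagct
Col15a1: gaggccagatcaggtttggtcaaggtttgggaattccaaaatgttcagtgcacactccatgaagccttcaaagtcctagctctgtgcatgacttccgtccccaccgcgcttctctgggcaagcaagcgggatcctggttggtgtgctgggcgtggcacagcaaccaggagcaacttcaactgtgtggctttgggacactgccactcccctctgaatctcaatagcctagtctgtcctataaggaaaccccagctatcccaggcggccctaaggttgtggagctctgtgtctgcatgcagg

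A GC box on either strand occurred in 8 of the 10 member windows, all 10 of which matched by symbol, against 33.1% of 33469 RefSeq windows of the same 300 bases. The Col18a1 window held 3 matches, the Nid1 window 2 and the Col15a1 window none, and the Col4a1 and Col4a2 windows held 2 each, which are the same bases read from either strand. The CCAAT box, searched as CCAAT or ATTGG, occurred in 4 of 10 member windows and 37.5% of all windows. The member windows were 55.0% to 75.0% G or C, against a median of 51.7% over all windows. A match describes letters in the window and does not show binding.

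ISO replicate 3 stood apart from the other ISO libraries in fibrillar collagens. These summed to 16373 CPM there, against 7144 and 5914 CPM in ISO replicates 1 and 2 and 2145 to 2912 CPM in saline. The 9 members summed to 3250, 3537 and 3301 CPM in ISO replicates 1 to 3, and to 2828 to 3002 CPM in saline. CPM here are read counts scaled to the library total and corrected by TMM, a library-size normalisation. ISO replicate 1 had more RNA of atrial markers, with 340.2 CPM summed over 7 atrial markers against 125 and 100.4 CPM in ISO replicates 2 and 3 and 119 to 130.3 CPM in saline. In ISO replicate 1, Myl7 stood at 70.7, Myl4 at 54.8, Sln at 42.0, Bmp10 at 12.0 and Mybphl at 9.84 CPM. In every other library each of these was at most 2.93 CPM, and most of the sum was Dkk3, at 87.3 to 111.8 CPM. Dkk3, at 130.6 CPM in ISO replicate 1, and Stard10, at 20.3 CPM, differed far less. Cardiomyocyte markers summed to 42185 to 60367 CPM in ISO and 66613 to 78921 CPM in saline, abundant in every library of this heart tissue.

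Between ISO and saline hearts, 2 of the 9 members were called higher, Col18a1 and Nid1, and none was called lower. A gene was called when its edgeR quasi-likelihood p, adjusted over all 13766 tested genes by the Benjamini-Hochberg method, was under 0.05. Over all tested genes, 1.47% were called higher and 1.50% lower, 2.97% in all. The lowest estimate was that of Col15a1, which missed the threshold, while both type IV collagens and all 4 laminin chains stayed within 0.25 of no change on the log2 scale. At an unadjusted edgeR p under 0.05 there were 2 higher members and 1 lower, against 12.0% and 10.9% of all tested genes, 22.9% in all. The series states thresholds of an absolute log2 fold change over 0.5 and a p under 0.05, taken here as unadjusted. Its authors used DESeq2, and here the thresholds were applied to the edgeR fit. By them there were also 2 higher members and 1 lower, against 8.67% and 4.50% of all tested genes, 13.2% in all. DESeq2 called Col15a1 lower as well, in a fit that called 700 genes higher and 603 lower, against 203 and 206 by edgeR. The DESeq2 counts of lists given below stand beside those larger totals. The voom method of limma called no member lower, with 154 genes higher and 175 lower. The median log2 fold change was 0.19 over the members and 0.02 over all tested genes.

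**Figure D1:**
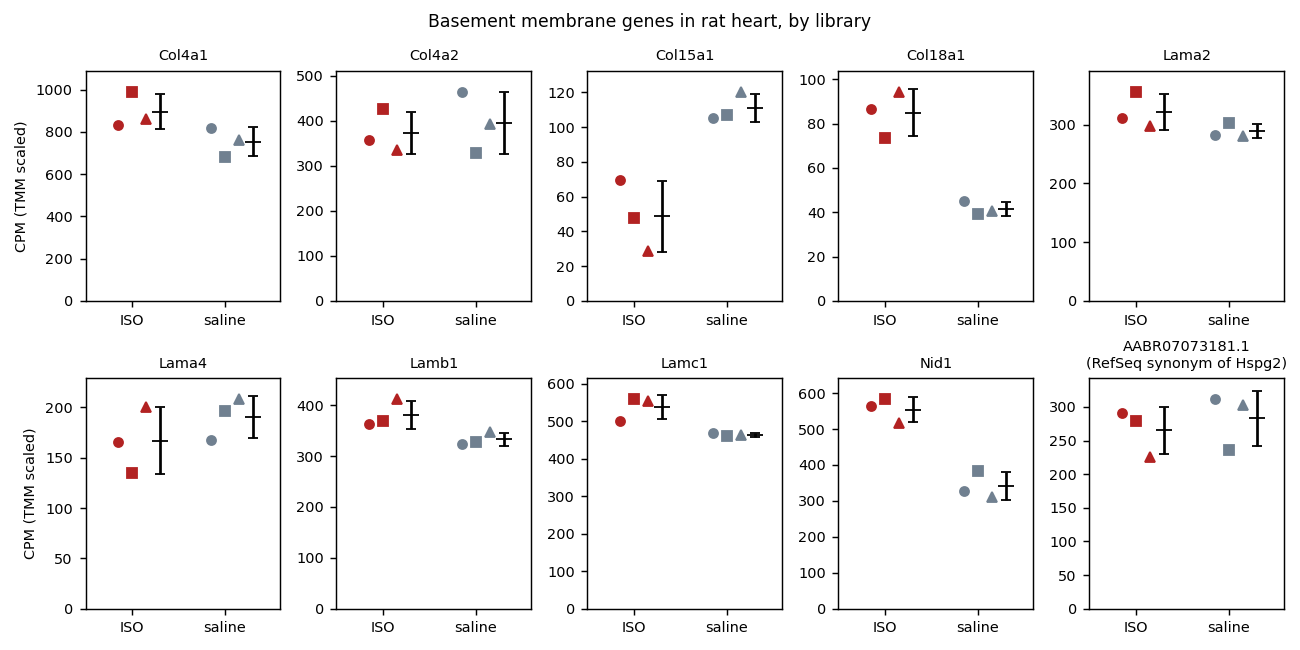
Levels in CPM after TMM scaling of the 9 members and of the row matched to Hspg2, with ISO libraries in red left of saline libraries in slate grey; circles, squares and triangles are replicates 1, 2 and 3, and black bars are mean ± SD (n = 3). Col18a1 and Nid1 are higher in every ISO library than in any saline library, Col15a1 is lower in every ISO library, and in the other panels the groups overlap or lie close.

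Among the collagens at the outer face of the membrane, Col18a1, which encodes collagen XVIII and its endostatin fragment (ENSRNOG00000001229), stood at 86.6, 73.7 and 94.5 CPM in ISO replicates 1 to 3 and at 45.3, 39.2 and 40.4 CPM in saline replicates 1 to 3. Every ISO library was above every saline library. The means were 84.9 ± 10.5 CPM in ISO and 41.6 ± 3.23 CPM in saline (SD, n = 3 each), a 2.04-fold difference. Its log2 fold change was 1.03 (SE 0.12, 95% interval 0.74 to 1.31, edgeR adjusted p = 0.0138). In RNA from heart tissue, more cells of a type and more RNA per cell cannot be told apart, here or for any other member.

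Col15a1, which encodes collagen XV, a collagen of muscle and capillary basement membranes (ENSRNOG00000060381), had an estimate of the opposite sign. It stood at 69.7, 47.5 and 28.8 CPM in ISO replicates 1 to 3, and at 105, 107 and 120.4 CPM in saline replicates 1 to 3. Every ISO library was below every saline library, and the ISO libraries were far apart from each other. The means were 48.6 ± 20.5 CPM in ISO and 110.9 ± 8.27 CPM in saline, 0.438 of the saline level, and the log2 fold change was −1.19 (SE 0.27, 95% interval −1.81 to −0.56, edgeR adjusted p = 0.0568). Without ISO replicate 3, the ISO library with the least Col15a1, the estimate shrank to −0.92 (SE 0.17) and was called (edgeR adjusted p = 0.0435). Without ISO replicate 1 it was −1.55 (SE 0.23, edgeR adjusted p = 0.0592).

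Set against each other within a library, Col18a1 had 1.24, 1.55 and 3.28 reads per read of Col15a1 in ISO replicates 1 to 3, and 0.43, 0.366 and 0.335 in saline replicates 1 to 3. The ratio was 4.93-fold higher in ISO, with no overlap, and such ratios do not depend on how libraries are scaled. Since Col18a1 was above and Col15a1 below saline in every ISO library, this ratio had to separate the groups. Its separation and its p therefore add nothing to the values of the 2 genes. An exact two-sided permutation test gave p = 0.1, the smallest value that 3 against 3 libraries allow, and 0.18 when adjusted over the 9 gene pairs compared. No pair could therefore pass 0.05.

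Col4a1, the alpha 1 chain of the main type IV collagen (ENSRNOG00000016281), stood at 835, 991 and 861 CPM in ISO and at 816, 681 and 764 CPM in saline. ISO libraries lay above saline libraries, but ISO replicate 1 exceeded saline replicate 1 by little. The log2 fold change of 0.25 (SE 0.13, 95% interval −0.06 to 0.55) was not called (edgeR adjusted p = 0.303). Its partner Col4a2, the alpha 2 chain that joins paired alpha 1 chains in the same trimer (ENSRNOG00000023972), stood at 357, 426 and 336 CPM in ISO and at 465, 328 and 392 CPM in saline. These groups overlapped, and the log2 fold change was −0.08 (SE 0.16, 95% interval −0.45 to 0.28, edgeR adjusted p = 0.799). Its sign turned without scaling and without saline replicate 1.

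Although neither chain was called, their ratio separated the groups. Col4a2 had 0.427, 0.43 and 0.39 reads per Col4a1 read in ISO replicates 1 to 3, and 0.57, 0.481 and 0.514 in saline replicates 1 to 3. The mean ratio was 0.416 ± 0.0223 in ISO and 0.522 ± 0.0448 in saline, which is 0.798 of the saline ratio on the log scale (exact permutation p = 0.1, 0.18 adjusted over 9 pairs). The difference of the mean log2 ratio was −0.33 with all libraries and lay between −0.38 and −0.26 when each library was left out. The ratio compares reads and not molecules, since transcript lengths were not used.

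**Figure D2:**
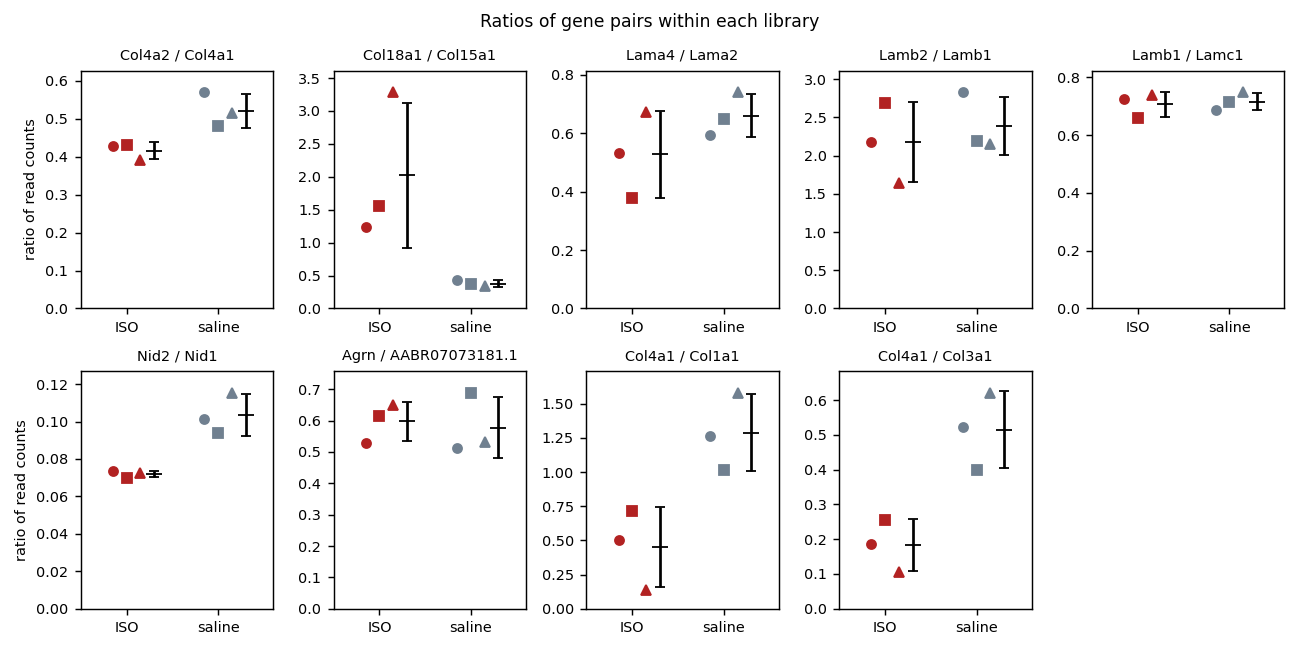
Ratio of read counts of 9 gene pairs within each library, with ISO in red left of saline in grey; circles, squares and triangles are replicates 1, 2 and 3, and black bars are mean ± SD (n = 3). The groups do not overlap for 5 pairs, among them Col4a2 to Col4a1, which is 0.39 to 0.43 in ISO and 0.481 to 0.57 in saline. Each of these pairs holds a gene whose own groups do not overlap, as is so for 28.8% of all tested genes. The share over other gene pairs was not taken.

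Col4a1 was also set against 2 of the fibrillar collagens, the rope-like collagens of scar and interstitium, and had fewer reads per read of Col1a1 and of Col3a1 in every ISO library than in any saline library. The other 4 fibrillar collagens were not among the pairs compared. Col4a1 had 0.506, 0.713 and 0.135 reads per read of Col1a1, the main fibrillar collagen chain, in ISO replicates 1 to 3, and 1.26, 1.02 and 1.58 in saline replicates 1 to 3. Against Col3a1, the chain of type III collagen, it had 0.187, 0.255 and 0.105 in ISO and 0.523, 0.399 and 0.621 in saline. Neither ratio overlapped between groups (exact permutation p = 0.1, 0.18 adjusted, for each). Col1a1 and Col3a1 were themselves higher in every ISO library than in any saline library. The log2 fold change of Col1a1 was 2.38 (SE 0.55, edgeR adjusted p = 0.0584), not called, against 0.25 for Col4a1. Both ratios therefore follow the fibrillar collagens more than Col4a1. ISO replicate 3 held the lowest ratio both times, and without it the difference of the mean log2 ratio to Col1a1 was −1.07, against −1.79 with all libraries. Of 6 fibrillar collagens, Col3a1 was called higher at 1.88 (SE 0.29, edgeR adjusted p = 0.0204) and none lower, with a median of 1.35. Over all tested genes, edgeR called 1.47% higher. At an unadjusted edgeR p under 0.05 there were 5 higher and 0 lower, against 12.0% and 10.9% of all tested genes. DESeq2 called 4 higher and voom 1.

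The laminin chains showed small differences that were not called. Lamc1, the gamma 1 chain shared by most laminins (ENSRNOG00000002680), stood at 500.0, 558 and 555 CPM in ISO and at 469.9, 459.9 and 464 CPM in saline. Lamb1, the beta 1 chain (ENSRNOG00000005678), stood at 362, 368 and 411 CPM in ISO and at 323, 328 and 347 CPM in saline. For both genes all ISO libraries lay above all saline libraries. Their log2 fold changes were 0.21 (SE 0.11, 95% interval −0.04 to 0.46, edgeR adjusted p = 0.289) for Lamc1 and 0.19 (SE 0.11, 95% interval −0.06 to 0.45, edgeR adjusted p = 0.331) for Lamb1. The intervals of both lay under a change of 0.5.

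The alpha chains, which give a laminin its tissue and its receptor contacts, overlapped between groups. Lama2, the alpha 2 chain whose loss causes a congenital muscular dystrophy (ENSRNOG00000011134), stood at 311, 356 and 298 CPM in ISO and at 282, 303 and 281 CPM in saline. Lama4, the alpha 4 chain (ENSRNOG00000000599), stood at 166, 134 and 201 CPM in ISO and at 167, 196 and 208 CPM in saline. ISO replicates 1 and 2 had less Lama4 than any saline library, and ISO replicate 3 lay within the saline range. The log2 fold changes were 0.16 (SE 0.11, edgeR adjusted p = 0.455) for Lama2 and −0.19 (SE 0.16, edgeR adjusted p = 0.524) for Lama4.

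Ratios between laminin chains overlapped between groups. Reads of Lamb1 per read of Lamc1 were 0.724, 0.659 and 0.741 in ISO and 0.688, 0.713 and 0.749 in saline, a ratio of 0.987 between groups. Reads of Lama4 per read of Lama2 were 0.532, 0.377 and 0.673 in ISO and 0.593, 0.647 and 0.74 in saline, which is 0.78 of the saline ratio on the log scale (exact permutation p = 0.3, 0.45 adjusted over 9 pairs). That difference was as large as for Col4a2 to Col4a1, with a wider spread within groups. Lamb2, the beta 2 chain, had 2.18, 2.69 and 1.64 reads per read of Lamb1 in ISO and 2.83, 2.19 and 2.15 in saline (exact permutation p = 0.5, 0.643 adjusted).

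Nid1, the linker between laminin and type IV collagen (ENSRNOG00000002461), was the other called member. It stood at 564, 583 and 516 CPM in ISO and at 327, 385 and 312 CPM in saline, with no overlap and a narrow spread in both groups. The means were 554 ± 34.4 CPM in ISO and 341 ± 38.4 CPM in saline (SD, n = 3 each), and the fitted rise was 62.4%. The log2 fold change was 0.70 (SE 0.13, 95% interval 0.41 to 0.99, edgeR adjusted p = 0.0317).

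The second nidogen gene, Nid2, differed less. It stood at 41.4, 40.7 and 37.4 CPM in ISO and at 33.1, 36.0 and 36.0 CPM in saline, so every ISO library was higher by a small margin. The log2 fold change was 0.19 (SE 0.10), not called (edgeR adjusted p = 0.308). Nid2 had 0.0734, 0.0699 and 0.0725 reads per Nid1 read in ISO and 0.101, 0.0936 and 0.115 in saline, with no overlap (exact permutation p = 0.1, 0.18 adjusted over 9 pairs).

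The row matched to Hspg2, the gene of perlecan, stood at 292, 278 and 225 CPM in ISO and at 311, 237 and 303 CPM in saline. The groups overlapped, and the log2 fold change of −0.10 (SE 0.15, 95% interval −0.45 to 0.25, edgeR adjusted p = 0.749) turned its sign without scaling and without ISO replicate 3. Agrn, the gene of agrin, another heparan sulfate proteoglycan of basement membranes, gave −0.03 (SE 0.10, edgeR adjusted p = 0.877), with a sign that turned in the same 2 fits. Reads of Agrn per read of the Hspg2 row were 0.53, 0.613 and 0.649 in ISO and 0.511, 0.689 and 0.531 in saline.

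Groups did not overlap for 6 of the 9 members, 5 with ISO above and 1 with ISO below. Over all tested genes the groups did not overlap for 14.1% with ISO above and 14.6% with ISO below, 28.8% in all. The order by log2 fold change was Col18a1, Nid1, Col4a1, Lamc1, Lamb1, Lama2, Col4a2, Lama4 and Col15a1. The 95% intervals of neighbours in that order overlapped in every case but Lama4 and Col15a1, whose intervals both ended at −0.56, so most of the order is not resolved.

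The calls of Col18a1 and Nid1 did not hold in every fit that left out a library. Both were kept without ISO replicate 2 and without ISO replicate 3, where the edgeR adjusted p was 0.0124 and 0.0142 for Col18a1 and 0.0359 and 0.0368 for Nid1. Both were lost without ISO replicate 1 (edgeR adjusted p = 0.0592 for Col18a1 and 0.124 for Nid1). That library had the most atrial marker RNA, and any part of it in these calls was not tested. Without saline replicate 1, 2 or 3 the adjusted p was 0.0522, 0.0527 and 0.0768 for Col18a1 and 0.126, 0.0674 and 0.164 for Nid1. The estimates moved less, between 0.95 and 1.12 for Col18a1 and between 0.64 and 0.79 for Nid1 over the 6 fits. Calls over all genes varied widely in these fits too, from 6 to 492 higher and from 5 to 346 lower.

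**Figure D3:**
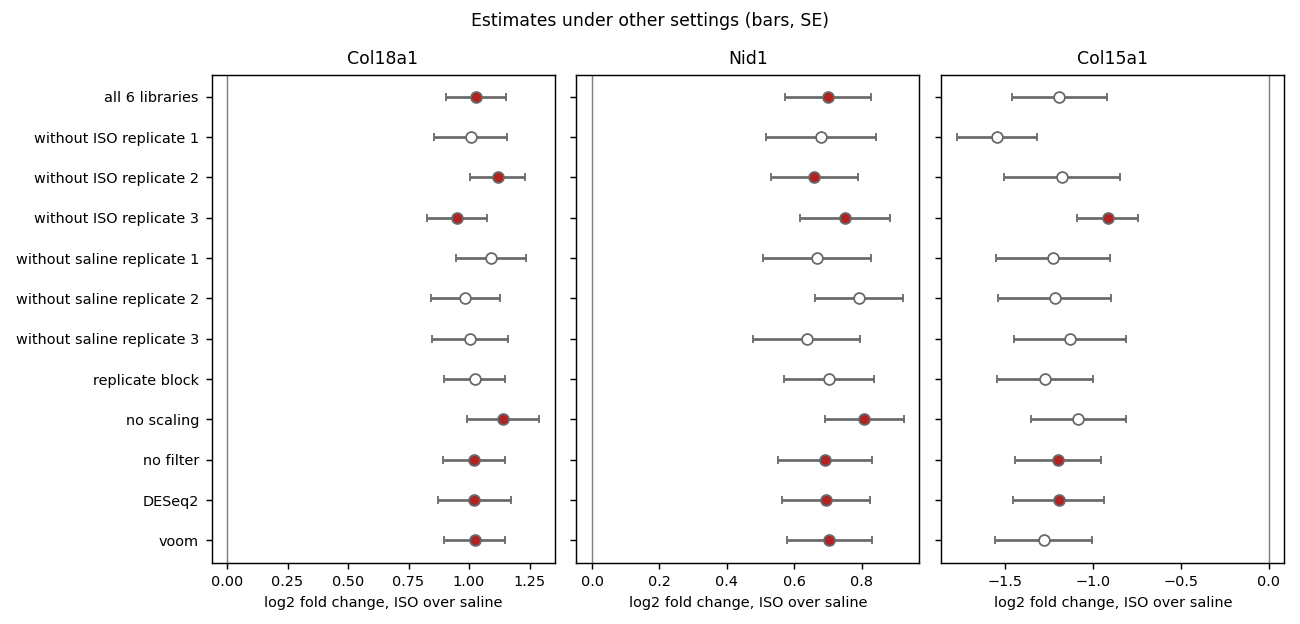
Log2 fold change, ISO over saline, of Col18a1, Nid1 and Col15a1 with all 6 libraries, without each library and under 5 other settings; bars are the SE and filled points were called at an adjusted p under 0.05. Estimates stay on their side of 0 in every fit shown, while calls come and go.

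Markers of the main cell types of the heart were summed per library. Fibroblast markers summed to 5026 to 5366 CPM in ISO and 3086 to 3556 CPM in saline, with 4 of 10 called higher and a median log2 fold change of 0.82. Macrophage markers summed to 812 to 1828 CPM in ISO and 363 to 447 CPM in saline, with 5 of 10 called higher and a median of 1.13. Cardiomyocyte markers had 1 of 11 called lower, Actc1, and a median of −0.45, with 9 estimates below 0 and 2 above. They did not move together. Actc1 was at −1.18, Atp2a2 at −0.71 and Myh6 at −0.57, while Tnnt2 (0.07), Tnni3 (0.01), Actn2 (−0.02) and Mybpc3 (−0.03) were near 0. Over all tested genes, edgeR called 1.47% higher and 1.50% lower. DESeq2 called 9 fibroblast, 10 macrophage and 4 cardiomyocyte markers in those directions, in a fit with 700 genes called higher and 603 lower. The part of these shifts in the values of Col18a1, Nid1 and Col15a1 was not tested.

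Endothelial markers summed to 1849 to 2426 CPM in ISO and 1952 to 2196 CPM in saline, and had a median of −0.07, with 4 of 11 tested genes above 0 and 7 below, which became 0.03, 7 and 4 without scaling. edgeR called none of them, 1 had an unadjusted p under 0.05, DESeq2 called 1 lower, the receptor gene Kdr, and voom none. An unadjusted edgeR p under 0.05 was held by 22.9% of all tested genes. Pecam1 had no row of that name and Cldn5 was at 0 counts in all 6 libraries. Pericyte and smooth muscle markers summed to 3728 to 4076 CPM in ISO and 3201 to 3672 CPM in saline. Most of each sum was Des, at 2477 to 2880 CPM in ISO and 2000 to 2428 CPM in saline, so the sums mainly follow that gene. The next most abundant, Abcc9, overlapped between groups, at 330 to 372 CPM in ISO and 336 to 366 CPM in saline. Of these 12 markers edgeR and voom called none, 3 had an unadjusted edgeR p under 0.05 and DESeq2 called 1 (Pdgfrb). Their median was 0.09, with 8 estimates above 0 and 4 below. Schwann and nerve markers summed to 63.6 to 93.0 CPM in ISO and 34.3 to 62.2 CPM in saline, epicardial markers to 29.5 to 74.5 CPM in ISO and 26.0 to 90.9 CPM in saline, and red cell markers to 1604 to 5041 CPM in ISO and 4322 to 10781 CPM in saline, while adipocyte markers came to at most 3.95 CPM in any library.

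Other basement membrane chains followed the type IV collagens and laminins in showing no call. The 4 other type IV chain genes all had estimates above 0, with a median of 0.33, and those with the most reads were Col4a5, at 0.19 (SE 0.19), and Col4a4, at 0.15 (SE 0.17). Of 7 other laminin chains, 5 were tested, with a median of 0.05, and those with the most reads were Lamb2 at 0.05 (SE 0.17) and Lama5, a chain of mature vessels, at 0.20 (SE 0.18). edgeR, DESeq2 and voom called none of these 9 genes. By the unadjusted edgeR p, 0 type IV chains were under 0.05 and 1 laminin chain was in each direction. These were Lamb3 above and Lamc3 below, named after their values were seen. The shares of all tested genes were 12.0% higher and 10.9% lower.

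Linkers and matricellular partners had none of 13 members called by edgeR or voom, with a median of 0.06. With no adjustment, 4 higher and 2 lower members had an edgeR p under 0.05, against 12.0% and 10.9% of all tested genes. DESeq2 called 2 higher, Sparc and, named after its values were seen, Vwa1. Sparc, a secreted collagen-binding protein, stood at 2205, 1982 and 2845 CPM in ISO and at 1387, 1370.4 and 1683 CPM in saline. All ISO libraries were above all saline libraries, and the log2 fold change was 0.66 (SE 0.18, edgeR adjusted p = 0.0782), called only without ISO replicate 2 among the 6 fits that leave out a library (0.77, edgeR adjusted p = 0.041).

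Genes that modify, fold and crosslink collagen had none of 13 tested members called by edgeR or voom. Their median was 0.30, 12 of 13 had estimates above 0, and 6 reached an unadjusted edgeR p under 0.05, all higher. Over all tested genes, 12.0% were higher at that unadjusted p. DESeq2 called 2 higher, P4ha3 and Loxl2, named after their values were seen. Those with the most reads were P4hb, a subunit of prolyl 4-hydroxylase, at 0.26 (SE 0.20, edgeR adjusted p = 0.478) and Serpinh1, a collagen chaperone, at 0.30 (SE 0.29, edgeR adjusted p = 0.587). For Serpinh1 only ISO replicate 3, at 498 CPM, lay above the saline libraries at 211 to 307 CPM, and the estimate was −0.14 without it.

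Receptors that tie cells to the basement membrane had estimates mostly below 0. Of 21 receptors, 15 had estimates below 0 and 6 above, with a median of −0.16, against 12 below, 9 above and a median of −0.06 without scaling. edgeR and voom called none. Without adjustment the edgeR p was under 0.05 for 4 lower and 3 higher members. The shares of all tested genes were 10.9% lower and 12.0% higher, 22.9% in all. DESeq2 called 2 lower, Itga6 and Sgcb, and 2 higher, Ddr1 and Sdc1, named after their values were seen. Itgb1, the integrin beta 1 chain, gave −0.03 (SE 0.15) and Gpc1, a glypican, 0.22 (SE 0.21), the receptors with the most reads, and both signs turned without ISO replicate 2, that of Itgb1 also without scaling, without ISO replicate 1 and without saline replicate 2.

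Groups did not overlap for 5 receptor genes with ISO below (Itga2, Itga6, Dag1, Sgcb and Dmd) and 2 with ISO above (Ddr1 and Sdc1), also named after their values were seen. These 7 of 21 stand beside 28.8% of all tested genes without overlap, 14.6% with ISO below and 14.1% with ISO above, so the share is near the background. Itga6, the integrin alpha 6 chain, stood at 124, 145 and 111 CPM in ISO and at 153, 193 and 226 CPM in saline, which gave −0.59 on the log2 scale (SE 0.17, edgeR adjusted p = 0.0887). Sgcb, beta sarcoglycan of the dystrophin complex, stood at 198, 205 and 190.3 CPM in ISO and at 261, 248 and 248 CPM in saline, −0.35 (SE 0.10, edgeR adjusted p = 0.0883). Dag1, which encodes dystroglycan, the laminin receptor of that complex, gave −0.27 (SE 0.11, edgeR adjusted p = 0.19), and Dmd, the dystrophin gene, −0.36 (SE 0.12, edgeR adjusted p = 0.138). Ddr1, a collagen receptor kinase, stood at 62.0, 70.2 and 42.2 CPM in ISO and at 36.7, 22.7 and 27.7 CPM in saline, 1.00 (SE 0.23, edgeR adjusted p = 0.056), and it was called by edgeR without scaling (adjusted p = 0.0444), with no filter on low counts (adjusted p = 0.0295) and without ISO replicate 3 (adjusted p = 0.027). The cardiomyocyte markers also had a median below 0, though Tnnt2, Tnni3, Actn2 and Mybpc3 among them were near 0. The part of that shift in the receptor values was not tested.

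Proteases and inhibitors had 2 of 11 tested members called higher and none lower, with a median of 0.42. Over all tested genes, 1.47% were called higher and 1.50% lower. By the unadjusted edgeR p, 7 higher and 0 lower members were under 0.05, against 12.0% and 10.9% of all tested genes. DESeq2 called 4 higher and voom 2. Mmp2, a gelatinase that cuts type IV collagen, stood at 419.5, 347 and 488 CPM in ISO and at 202, 206 and 209 CPM in saline, 1.03 (SE 0.14, edgeR adjusted p = 0.0157). Ctsk, the collagenolytic cathepsin K, stood at 42.3, 27.1 and 45.9 CPM in ISO and at 16.1, 17.5 and 15.6 CPM in saline, 1.23 (SE 0.19, edgeR adjusted p = 0.0205). In both genes every ISO library was above every saline library. As for Col18a1 and Nid1, the calls of Mmp2, Ctsk and Col3a1 were kept without ISO replicate 2 or 3 and lost without any of the other libraries, where the edgeR adjusted p lay between 0.0617 and 0.117.

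**Figure D4:**
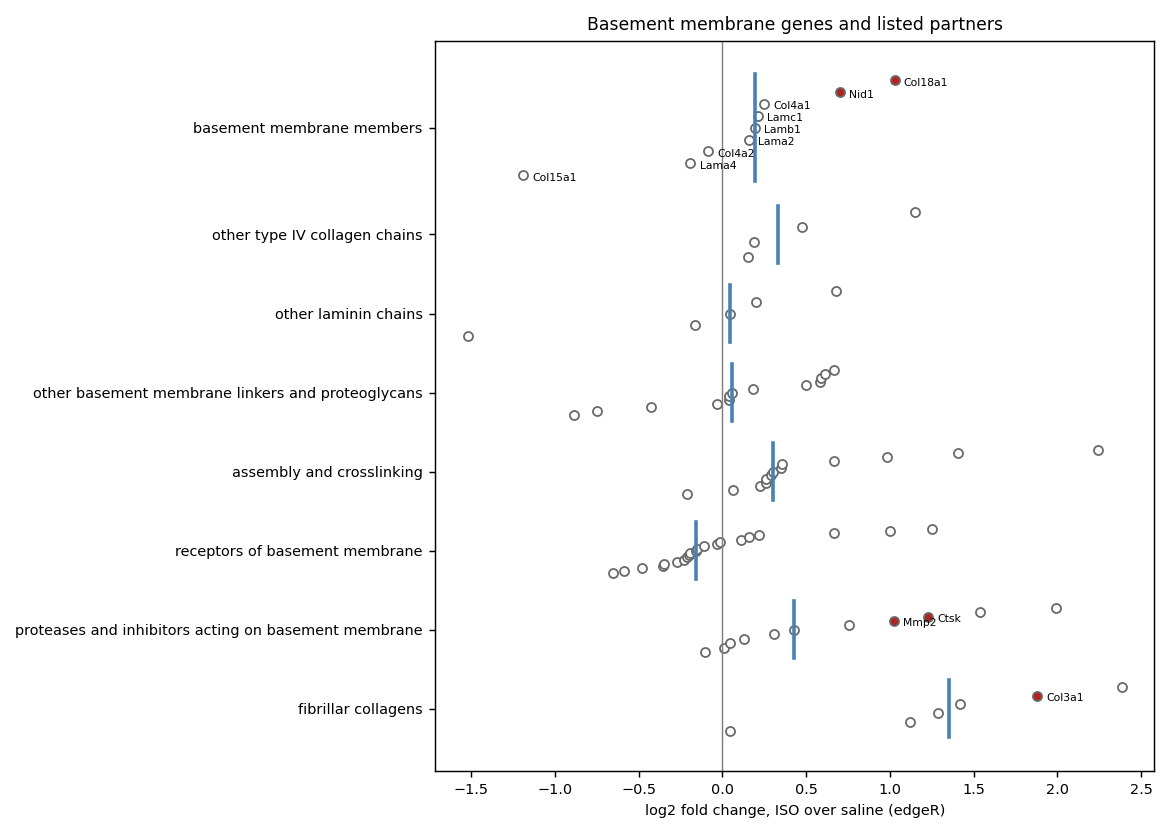
Log2 fold change, ISO over saline, of each tested gene by list; filled points were called at an adjusted p under 0.05 and vertical bars are list medians. Members span from Col15a1 at −1.19 to Col18a1 at 1.03, with the type IV collagens and laminins near 0, while the fibrillar collagens have a median of 1.35.

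The genes with a profile over the 6 libraries most like that of Col4a1 were Tpra1, Eif4e2, Bag3, Rbm17 and Ip6k2. Likeness was the Euclidean distance between log2 CPM after subtracting each gene's saline mean, over 8557 genes with at least 10 CPM on average. The distances were 0.0859 to 0.103, against a median of 0.752 over those genes, and the log2 fold changes of the 5 genes were 0.20 to 0.25. They are given as a description, and how many other genes lie near such a profile was not counted.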

How the data were processed

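The series' design text states 150 bp paired-end sequencing, HISAT2 alignment to a rat reference, and featureCounts. It speaks of FPKM, but the deposited table holds unnormalised whole counts, 1 column per library. No source used here states versions or whether strand was used, which leaves reads of overlapping or antisense genes uncertain. The submitters' processing notes list mm10, a mouse build, whereas named rows carry rat identifiers. No coordinates were taken from the table, and promoter sequences come from RefSeq, build GRCr8, matched by symbol.

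Of 33889 rows, 1006 had no gene name and held 0.98% to 1.32% of a library's counts. They were left out. For a repeated symbol, the row with the largest total was read under it. No pair of libraries agreed within sampling noise.

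The test was edgeR 4.0.16 (quasi-likelihood F test, TMM scaling, default filter, R 4.3.3), run on all genes and tested on simulated data. There it called 10% of genes changed 1.5-fold, 56% of those changed 2-fold and 90% of those changed 4-fold (50 genes each). Of its 132 calls, 5 were false. A gene that is not called may therefore still differ by such small folds. SE is the log2 fold change divided by the square root of F, and 95% intervals use the test's degrees of freedom. Ratios were tested with scipy 1.17.1. Alternatives were other scalings and filters, DESeq2 1.42.0, voom from limma 3.58.1, other thresholds, mitochondrial genes left out, a replicate block, each library left out and, added after the data were seen, unnamed rows kept. Depth limits precision: 3 reads, the counting floor, came to 0.175 to 0.204 CPM.

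Members, lists and tests were chosen with earlier results of these data known. Named genes were the members, up to 4 called members per pathway list by p or otherwise the 2 most abundant, the genes of the pairs and the 5 nearest to Col4a1. Marker lists, for which the rule took their 2 most abundant genes, are given mainly as sums instead.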

Additional observations from a re-analysis of the deposited data

How the results depend on the processing

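Each gene was compared with its main result under each alternative setting. The 9 members and the Hspg2 row kept direction and side of the threshold in 150 of 170 such comparisons, other named genes in 380 of 425. Most of these are genes called in neither setting, and the stricter threshold and the series' rule reuse the main fit. Of the 170, 12 were lost calls of Col18a1 or Nid1, the only called members. Without scaling, the median of all genes moved to 0.13 from 0.02, 123 genes were called lower, and the estimates of Col4a2 (0.014), the Hspg2 row (0.0053), Agrn (0.071) and Itgb1 (0.084) turned above 0. The split of all calls was 280 higher and 123 lower without scaling, against 203 and 206 with TMM. With no filter, 1 member was called lower, 322 genes and 9 listed other genes higher. DESeq2 called 1 member lower, 700 genes higher and 603 lower, and 14 listed other genes higher and 2 lower. The series' rule (absolute log2 fold change over 0.5, unadjusted p under 0.05) was applied to the edgeR fit. It gave 1 member lower, 1193 genes higher and 619 lower, and 21 and 4 listed other genes. At an adjusted p under 0.01, 0 members and 0 listed other genes were called, with 4 genes higher and 7 lower. The cause of these changes was not tested.

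No pairing by replicate number was seen: deviations of same-numbered libraries correlated at 0.09, −0.10 and 0.02, and not every library correlated best with its own number. With 3 libraries per group, such correlations cannot show that the libraries were unpaired. With the replicate block, 0 members and 0 listed other genes were called, with 15 genes higher and 13 lower; Col18a1 stood at 1.02 (edgeR adjusted p = 0.0529) and Nid1 at 0.70 (0.08). The paired exact test of ratios cannot go below 0.25.

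Leaving out each library gave 0 to 2 members called higher and 0 to 1 lower, 6 to 492 genes higher and 5 to 346 lower, and 0 to 13 listed other genes higher. Signs turned, within these ranges, for the Hspg2 row (−0.21 to 0.012), Col4a2 (−0.20 to 0.046), Col4a4 (−0.020 to 0.33), Agrn (−0.10 to 0.018), Lamb2 (−0.12 to 0.17), Itgb1 (−0.19 to 0.072), Gpc1 (−0.073 to 0.37) and Serpinh1 (−0.14 to 0.49). They also turned for the log2 ratios Agrn to Hspg2 (−0.023 to 0.19), Lamb1 to Lamc1 (−0.052 to 0.032) and Lamb2 to Lamb1 (−0.32 to 0.031).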
